A study of Mus musculus with 14 samples.

Results

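The genes described here encode the extracellular matrix protein nephronectin (Npnt), its relative Egfl6, the subunits of the receptor integrin α8β1 (Itga8 and Itgb1) and the Fraser complex proteins Fras1, Frem1 and Frem2. They are 7 of the 54532 genes in the count table and were chosen by symbol, with results of these libraries already known. Their differences between groups are therefore given as descriptions, with no p-value. Whether a member passed the threshold used for all genes likewise describes it and is not evidence about it. Bulk RNA was sequenced from tumours of 4T1, a mouse mammary carcinoma line used as a model of triple-negative breast cancer, after 1000000 cells had been placed in the mammary area of each mouse. From day 9, at a volume of about 100 mm3, mice received intraperitoneal PBS (n = 4 libraries), cyclophosphamide (CTX, an alkylating cytotoxic drug) at 100 mg/kg in PBS (CTX100, n = 5) or CTX at 140 mg/kg in PBS (CTX140, n = 5). Each mouse went through 3 cycles, spaced 6 days apart, and the tumour was removed 3 days after the last. All groups carry the same cell line and differ by label only in the drug and its dose. The sources used here give no strain, sex or age for the mice. Nor do they tie a library to its own mouse, so errors and p-values rest on the spread between libraries, which may be technical in part.

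Nephronectin carries epidermal growth factor-like repeats, an RGD integrin-binding motif and a MAM domain, and is deposited in basement membranes, where integrin α8β1 on neighbouring cells binds it. In the developing mouse kidney this pair is needed for expression of the growth factor Gdnf and for outgrowth of the ureteric bud, and the Fraser complex, assembled from Fras1, Frem1 and Frem2, holds nephronectin at the basement membrane. In mouse mammary carcinoma lines of the 4T1 family, nephronectin has been studied as a matrix product of metastatic cells.

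In multiples of 1000000 counts, the 4 PBS libraries held between 15.2 and 17.1, the 5 CTX100 libraries between 15.9 and 19.3 and the 5 CTX140 libraries between 14.4 and 18.8. The 9 markers of carcinoma epithelium, among them the keratins Krt8 and Krt18, summed to 1449.8 to 2267 CPM (counts per 1000000 of the scaled library size) in PBS, 1761 to 2137 CPM in CTX100 and 1260 to 1949 CPM in CTX140. Krt8 and Krt18 made up most of this sum, with means of 911 and 738 CPM in PBS. It therefore says little about the other markers, some of which rose at CTX140, as given below. No marker in any of the 11 cell type lists was at 0 in all libraries, but several were close to it. Over all libraries, the bone markers Sp7 and Bglap had 1 and 16 reads. The skin markers Flg, Krt1, Lor and Ivl had 2, 4, 9 and 11. Of 15360 genes tested, 245 were called at CTX100 against PBS (1.6%), 3268 at CTX140 against PBS (21.3%) and 192 at CTX140 against CTX100 (1.25%), at an adjusted p under 0.05 in edgeR. The number at the lower dose rested on single libraries: it was 17 without PBS 3, 28 without PBS 4 and 686 without PBS 2, and 50 to 97 without any 1 of the CTX100 libraries. At CTX140 against PBS it was 1975 without PBS 3 and 1992 without PBS 4. At CTX140 against CTX100 edgeR called 0 genes without CTX100 2, 3 or 4 or CTX140 3 (2659 to 3089 at an unadjusted p under 0.05), 1 without CTX100 1 or CTX140 2, 52 without CTX140 1, 528 without CTX140 4 and 1007 without CTX140 5.

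Of the 7 members, 4 passed the low-count filter and have a fitted fold change: Npnt, Itga8, Itgb1 and Frem1. The other 3 (Egfl6, Fras1 and Frem2) had at most 7 reads in any library and are given as counts. Because the filter keeps a gene that is high in only 1 group, these 4 do not stand for the whole set. Npnt and Itga8 had CTX100 levels below every PBS level, and Npnt and Itgb1 had CTX140 levels below every PBS level. Itga8 alone among the 4 was higher at the upper dose than at the lower one without overlap.

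Npnt (ENSMUSG00000040998; mm10 chromosome 3, 132881745 to 132950291, minus strand, up to 14 exons in GENCODE M21) encodes the ligand. It had 98.4, 61.8, 110.1 and 131 CPM in the PBS libraries, 40.4, 58.2, 51.9, 36.0 and 24.0 CPM in the CTX100 libraries and 34.5, 27.3, 32.4, 25.5 and 24.8 CPM in the CTX140 libraries. Every treated library lay below every PBS library, while the CTX100 and CTX140 ranges overlapped: only CTX100 5 lay below all the CTX140 values. The means were 100.2 ± 28.9 CPM in PBS, 42.1 ± 13.4 CPM in CTX100 and 28.9 ± 4.31 CPM in CTX140 (SD). The coefficient of variation was 28.8% in PBS, 31.9% in CTX100 and 14.9% in CTX140.

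The fitted log2 fold change of Npnt was -1.25 ± 0.23 (SE) at CTX100 against PBS and -1.79 ± 0.24 at CTX140 against PBS, which is a level 2.38 and 3.47 times lower than in PBS. Between the doses it was -0.54 ± 0.22 at CTX140 against CTX100, a difference whose ranges overlap. The comparisons with PBS share the 4 PBS libraries. The CTX100 difference passed the threshold used for all genes with every library in, but not without PBS 3 (-1.20), PBS 4 (-1.11) or CTX100 4 (-1.20). At CTX140 it passed without any 1 of the libraries.

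Per transcript length, Npnt averaged 19.9 ± 5.69 FPKM in PBS, 8.32 ± 2.65 FPKM in CTX100 and 5.74 ± 0.84 FPKM in CTX140. That placed it above 82.2% of the tested genes in PBS tumours, above 63.9% in CTX100 tumours and above 55.3% in CTX140 tumours.

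Itga8 (ENSMUSG00000026768; chromosome 2, 12106632 to 12301922, minus strand, up to 31 exons) encodes the subunit that gives the receptor its specificity for nephronectin. It had 39, 32, 55 and 41 reads in the PBS libraries, 14, 8, 19, 9 and 10 reads in the CTX100 libraries and 42, 37, 28, 14 and 36 reads in the CTX140 libraries. On the scaled level this was 2.35, 2.19, 3.84 and 2.25 CPM in PBS, 0.845, 0.478, 0.952, 0.584 and 0.619 CPM in CTX100 and 2.52, 2.20, 1.72, 0.956 and 1.93 CPM in CTX140. The lower dose stood apart: all 5 CTX100 libraries were below all 9 others, by a narrow margin in 1 case, since CTX140 4 at 0.956 CPM lay next to CTX100 3 at 0.952 CPM. PBS and CTX140 overlapped.

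Itga8 averaged 2.66 ± 0.79 CPM in PBS, 0.695 ± 0.196 CPM in CTX100 and 1.86 ± 0.59 CPM in CTX140 (SD). Pooled over the libraries of a group, 167 reads in PBS gave 2.62 CPM (exact Poisson 95% interval 2.24 to 3.05), 60 reads in CTX100 gave 0.707 CPM (0.540 to 0.910) and 157 reads in CTX140 gave 1.89 CPM (1.60 to 2.21). These intervals cover counting error only, and the CTX100 interval lies clear of the other 2.

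The log2 fold change of Itga8 was -1.91 ± 0.34 at CTX100 against PBS, -0.51 ± 0.32 at CTX140 against PBS and 1.41 ± 0.33 at CTX140 against CTX100. Itga8 was thus 3.77 times lower than PBS at the lower dose. Its order of mean levels, PBS, CTX140, CTX100, did not follow the dose. The order of the Npnt means did, though the Npnt ranges in CTX100 and CTX140 overlapped. At CTX100 against PBS the difference missed the threshold without PBS 3, the highest library, where it was -1.69. At CTX140 against CTX100 it missed the threshold without any 1 of the CTX100 libraries (1.30 to 1.55) or of CTX140 1, 2 or 3 (1.28 to 1.44), and also with no low-count filter, with only the 2 groups fitted, and in limma on FPKM. On the log2(FPKM + 1) scale, which compresses a gene this low, the 3 differences were -0.31, -0.12 and 0.19.

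**Figure D1:**
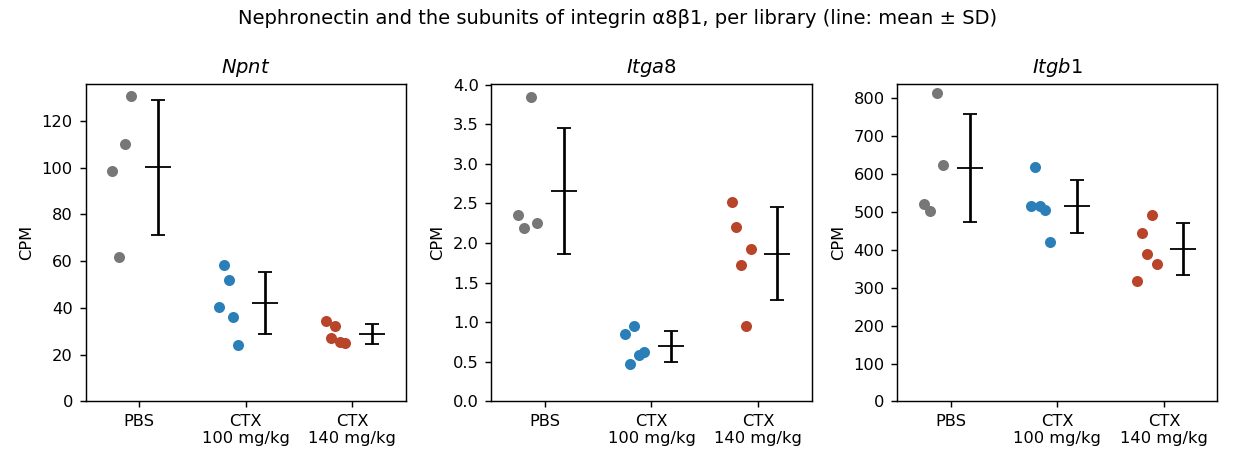
Level of Npnt, Itga8 and Itgb1 in CPM (vertical axis, linear from 0) in each library of PBS, CTX100 and CTX140; points are libraries and the line beside them is the mean ± SD (n = 4, 5 and 5). Npnt is lower at each dose than in PBS, Itga8 is lowest at CTX100 with all 5 libraries under 0.956 CPM, and Itgb1 is lowest at CTX140.

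Itgb1 (ENSMUSG00000025809; chromosome 8, 128685654 to 128733200, plus strand) encodes the β1 chain that Itga8 shares with many other α subunits. It had 521, 503, 814 and 625 CPM in the PBS libraries, 515, 618, 517, 506 and 421 CPM in the CTX100 libraries and 319, 444, 389, 493 and 363 CPM in the CTX140 libraries. The CTX140 libraries all lay below the PBS libraries, with CTX140 4 at 493 CPM just under PBS 2 at 503 CPM, and CTX100 overlapped both. The log2 fold change was -0.26 ± 0.16 at CTX100 against PBS, -0.62 ± 0.16 at CTX140 against PBS and -0.36 ± 0.15 at CTX140 against CTX100. PBS 3 weighed on these values: without it they were -0.09 at CTX100 and -0.46 at CTX140, and the CTX140 difference no longer passed the threshold.

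At the threshold used for all genes, 2 of the 4 tested members (Npnt and Itga8) were called lower at CTX100 against PBS, where 0.397% of all tested genes were called lower. At CTX140 against PBS 2 of 4 (Npnt and Itgb1) were called lower, with 10.1% of all tested genes called lower. At CTX140 against CTX100 1 of 4 (Itga8) was called higher, with 0.775% of all tested genes called higher. Groups without overlap, in the same direction, were found for 3.55% of all tested genes at CTX100 against PBS, 6.91% at CTX140 against PBS and 2.33% at CTX140 against CTX100. The members were picked knowing these contrasts, so the counts describe them and are not evidence about them.

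In bulk RNA, fewer cells of a type and less RNA per cell cannot be told apart, and the summed markers of several cell types differed between the groups. The 9 fibroblast markers summed to 749 to 1282 CPM in PBS, 1313 to 2302 CPM in CTX100 and 2339.7 to 6661 CPM in CTX140. Against PBS, 3 of 9 were called higher at CTX100 and 8 of 9 at CTX140. Pdgfra went the other way without being called, with -0.55 ± 0.30 at CTX100 and -0.60 ± 0.30 at CTX140 (log2 fold change, SE). Col3a1, Col1a1 and Col1a2 weigh most in the sum, with means of 1634, 846 and 770 CPM in CTX140. The 9 pericyte and smooth muscle markers, cells that express Itga8 in many mouse tissues, summed to 120 to 196 CPM in PBS, 109 to 181 CPM in CTX100 and 156 to 296 CPM in CTX140; 3 of 9 (Acta2, Myh11 and Notch3) were called higher at CTX140 against PBS. The markers in that sum moved in different directions at CTX100. The log2 fold changes of Rgs5, Pdgfrb, Cspg4 and Kcnj8 were -0.51, -0.37, -0.67 and -0.49 at CTX100 against PBS (SE 0.18 to 0.49) and 1.08, 0.37, 1.18 and 0.84 at CTX140 against CTX100 (SE 0.17 to 0.46). Those of Acta2, Myh11, Des and Notch3 were 0.89, 0.71, 1.20 and 0.78 at CTX100 against PBS (SE 0.25 to 0.67). At CTX140 against CTX100 these 4 were 0.75, 1.29, 0.25 and 0.64 (SE 0.23 to 0.60). Mcam had 0.07 ± 0.12 at CTX100 against PBS and -0.19 ± 0.12 at CTX140 against CTX100. EdgeR called 0 of the 9 at CTX100 against PBS, with 1 at an unadjusted p under 0.05 and 1 in DESeq2, and at CTX140 against CTX100 it called 0, with 6 at an unadjusted p under 0.05 and 3 in DESeq2.

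The 6 markers of mammary myoepithelium and basal epithelium, whose basement membrane borders the stroma, summed to 1.43 to 7.41 CPM in PBS, 3.70 to 17.0 CPM in CTX100 and 16.7 to 44.4 CPM in CTX140, and 5 of 6 were called higher at CTX140 against PBS. The 5 adipocyte markers summed to 0.275 to 4.04 CPM in PBS, 4.02 to 23.0 CPM in CTX100 and 16.3 to 103 CPM in CTX140, and all 4 tested were called higher at CTX140 against PBS. Osteoblast and bone markers, of cells that make nephronectin in mice, summed to 84.0 to 152 CPM in PBS, 69.0 to 91.3 CPM in CTX100 and 47.8 to 71.4 CPM in CTX140. Of the 4 tested, 3 (Ibsp, Runx2 and Dmp1) were called lower at CTX140 against PBS. The other, Alpl, had log2 fold changes of 0.36 ± 0.17 at CTX100 and 0.07 ± 0.17 at CTX140 against PBS. The untested osteoblast markers Sp7 and Bglap had 1 and 16 reads over all libraries. Of the 9 carcinoma epithelium markers, 4 were called higher at CTX140 against PBS (Epcam, Krt19, Cdh1 and Cldn7) and none lower. The lists for blood endothelium, Schwann cells, skeletal muscle, skin keratinocytes and macrophages had at most 1 marker called in any comparison by edgeR. Those called were Sox10 (Schwann cells, 4.27 ± 0.81) and Cx3cr1 (macrophages, -2.22 ± 0.45), at CTX140 against PBS. There edgeR called 0 of 6 blood endothelium markers, with 3 at an unadjusted p under 0.05 and 2 in DESeq2. Their sum averaged 69.2 ± 35.7 CPM in PBS and 122 ± 66.7 CPM in CTX140. Only 1 skin keratinocyte marker and 2 skeletal muscle markers were tested. The part of any of these cell types in the levels of Npnt, Itga8 or Itgb1 was not tested.

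Measured within each library, the ligand and its receptor subunit did not keep a fixed proportion. The ratio of Npnt to Itga8 in FPKM was 57.5 ± 20.6 in PBS (41.5 to 85.1), 95.1 ± 48.2 in CTX100 (56.9 to 178) and 24.8 ± 8.88 in CTX140 (18.2 to 39.2). Every CTX140 library lay below every library of the other groups, while PBS and CTX100 overlapped. The ratio of Itgb1 to Itga8 was 425 ± 52.8 in PBS, 1442 ± 545 in CTX100 and 454 ± 274 in CTX140, and the lowest CTX100 library (981) was above all the other groups' libraries (up to 930). Both separations were narrow at CTX140 4, which had 14 Itga8 reads: 39.2 there against 41.5 in PBS 2, and 930 against 981 in CTX100 3. The CTX100 libraries had 8 to 19 Itga8 reads, so single ratios carry much counting error. They use the members' own values and are descriptions.

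**Figure D2:**
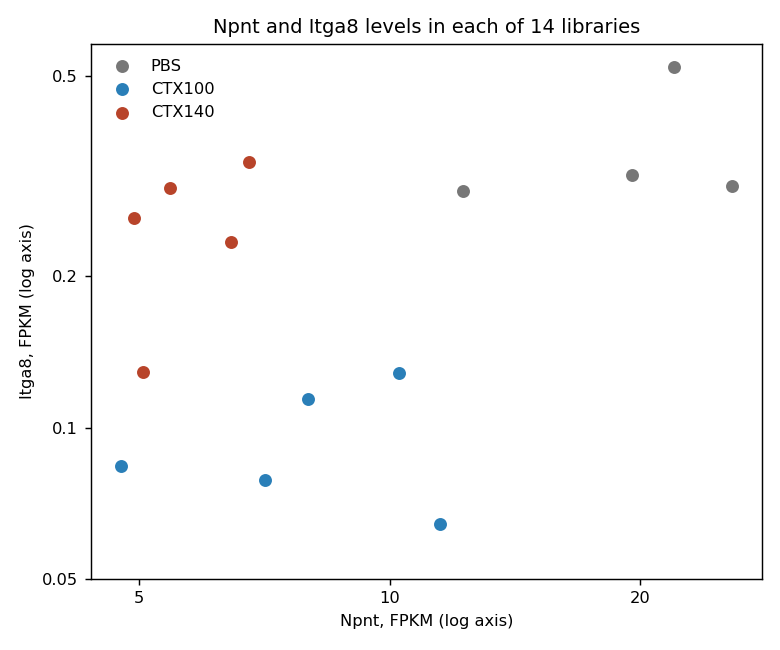
Npnt (horizontal) against Itga8 (vertical) in FPKM, both on log axes, 1 point per library, coloured by group. PBS libraries sit at upper right, CTX100 libraries at the bottom with Itga8 at 0.0644 to 0.128 FPKM, and CTX140 libraries towards the left with Npnt at 4.93 to 6.79 FPKM. The treated groups are not separate clusters. CTX100 5, with Npnt at 4.76 FPKM, lies left of every CTX140 library, and CTX140 4 has Itga8 at 0.129 FPKM.

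The promoters of Npnt and Itga8 are shown because both genes had lower levels at CTX100 than in PBS. Each run is the 250 bases before the start site in RefSeq on GRCm38.p6, read 5′ to 3′ on the gene's strand, and capitals mark the letters GGGCGG or their reverse complement CCGCCC, a GC box of the kind bound by Sp1-type factors. The Npnt window is chr3:132950292-132950541 (minus strand), directly before the listed gene start, and the Itga8 window is chr2:12301945-12302194 (minus strand), from a start site 22 bases outside the listed one.
Npnt: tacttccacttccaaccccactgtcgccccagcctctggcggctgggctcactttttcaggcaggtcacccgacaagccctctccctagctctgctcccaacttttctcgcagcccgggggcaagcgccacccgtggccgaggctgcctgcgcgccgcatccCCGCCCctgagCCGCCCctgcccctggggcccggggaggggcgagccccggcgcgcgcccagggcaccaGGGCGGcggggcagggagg
Itga8: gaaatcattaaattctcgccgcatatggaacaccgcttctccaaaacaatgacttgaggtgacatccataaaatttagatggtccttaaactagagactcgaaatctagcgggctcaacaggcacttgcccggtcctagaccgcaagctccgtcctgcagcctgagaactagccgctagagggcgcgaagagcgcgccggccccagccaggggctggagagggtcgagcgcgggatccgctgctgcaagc

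The Npnt window has 74.0% G and C and 21 CpG dinucleotides, and the Itga8 window 56.4% and 18, against medians of 52.4% and 6 over 32851 mouse promoter windows of the same length. The letters of the TATA box (TATAAA), the CCAAT box, the GC box (GGGCGG) and the E-box (CACGTG) were searched on both strands. The Npnt window shown holds 3 GGGCGG matches and none of the other motifs, while a second RefSeq start of Npnt, 477 bases inside the listed gene, has a window with 69.6% G and C, 23 CpG dinucleotides and none of the 4 motifs, and the Itga8 window holds none of the 4. Of all promoter windows, 12.4% hold the TATA box letters, 33.8% those of the CCAAT box, 32.7% those of the GC box and 6.02% those of the E-box. A match is a description of the letters, and no measurement here bears on factor binding. The RefSeq table matched 6 of the 7 members, all but Fras1.

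Egfl6 (ENSMUSG00000000402; chromosome X, 166523007 to 166585720, minus strand), the closest relative of nephronectin and also a ligand of α8β1, had reads in the treated libraries and none in PBS at this depth. It had 0 reads in each of the 4 PBS libraries, 7, 4, 3, 1 and 5 reads in the CTX100 libraries and 7, 5, 2, 1 and 2 reads in the CTX140 libraries. All 10 treated libraries therefore held at least 1 read, and no PBS library did. Among tested genes, which Egfl6 is not, 5.17% were above PBS without overlap at CTX100 and 7.34% at CTX140. A floor of 3 reads over the pooled PBS libraries is 0.0471 CPM, and the exact 95% interval of the PBS level reached up to 0.0579 CPM. The pooled Egfl6 level was 5.01 times that floor in CTX100 and 4.35 times that floor in CTX140. With counting error in both groups, the exact 95% interval of the count ratio reached down to 3.71 at CTX100 and 3.16 at CTX140. CTX140 against CTX100 gave a count ratio of 0.867 (exact 95% interval 0.427 to 1.74). Even where it was highest, at 0.155 FPKM, Egfl6 was far below Npnt.

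Fras1 (ENSMUSG00000034687; chromosome 5, 96373955 to 96784728, plus strand, up to 74 exons) is a large basement membrane protein and the founding member of the complex. It had 1, 0, 0 and 0 reads in PBS, 7, 0, 0, 0 and 0 reads in CTX100 and 2, 2, 0, 3 and 2 reads in CTX140. At CTX100 all its reads came from 1 library, CTX100 1, and at CTX140 they were spread over 4 of 5. The count ratio was 5.26 (0.676 to 237) at CTX100 against PBS, which falls to no reads without CTX100 1, and 6.90 (0.956 to 302) at CTX140 against PBS. Both intervals, which cover counting error only, include 1, so no difference was detectable at this depth. Without PBS 1 the PBS libraries hold no Fras1 read.

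Frem2 (ENSMUSG00000037016; chromosome 3, 53513938 to 53657355, minus strand), a transmembrane partner of Fras1, had 2, 0, 0 and 1 reads in PBS, 1, 1, 4, 2 and 2 reads in CTX100 and 3, 6, 0, 6 and 3 reads in CTX140. The highest libraries were CTX140 2 and 4, but CTX140 3 had no read, so the groups overlapped. The count ratio was 2.50 (0.645 to 14.2) at CTX100 against PBS and 4.60 (1.34 to 24.4) at CTX140 against PBS. At CTX140 against CTX100 it was 1.84 (0.804 to 4.45). These intervals pool the reads of a group and cover counting error only, not the spread between libraries. The interval at CTX140 against PBS, which lies above 1, is therefore a description and not a detected rise. PBS 1 held 2 of the 3 PBS reads, and without it the ratios to PBS were 5.56 at CTX100 and 10.2 at CTX140.

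Frem1 (ENSMUSG00000059049; chromosome 4, 82897920 to 83052339, minus strand), a secreted partner, was the only Fraser complex gene with enough reads to be tested. It had 15, 17, 35 and 17 reads in PBS, 4, 23, 22, 18 and 15 reads in CTX100 and 28, 28, 11, 18 and 14 reads in CTX140. The groups overlapped in every comparison, and the spread came largely from PBS 3 at the top and CTX100 1 at the bottom. The log2 fold change was -0.49 ± 0.46 at CTX100 against PBS, -0.18 ± 0.46 at CTX140 against PBS and 0.31 ± 0.44 at CTX140 against CTX100, none much larger than its own error. Without PBS 3 the value was -0.05 at CTX100 and changed sign to 0.26 at CTX140 against PBS, and without CTX100 1 it was -0.26 at CTX100 against PBS and 0.06 at CTX140 against CTX100.

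**Figure D3:**
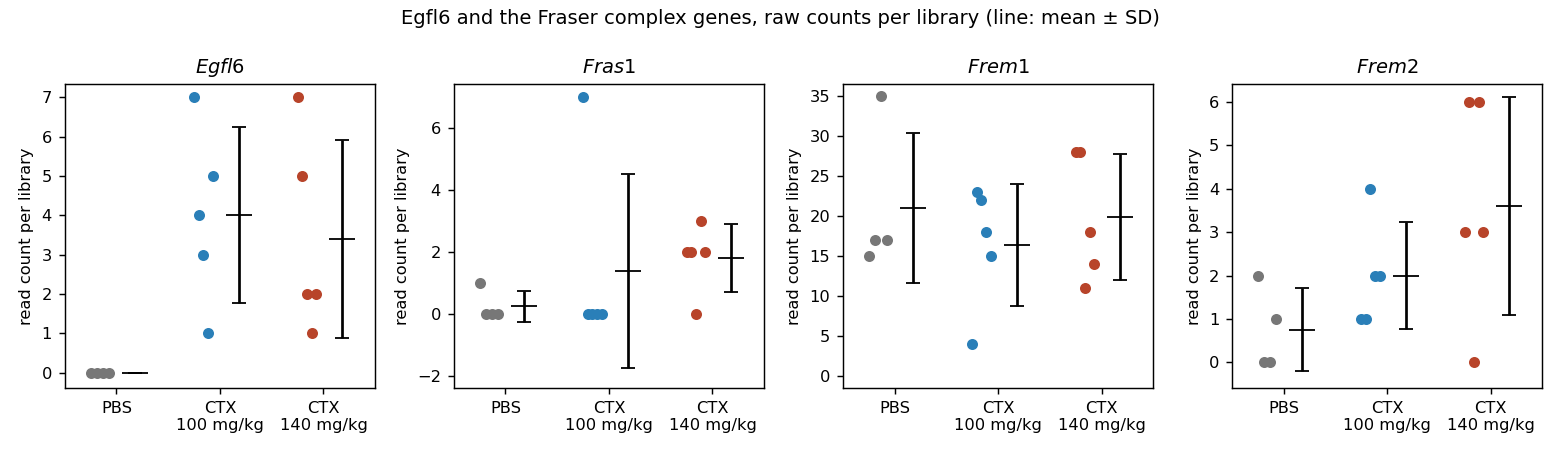
Raw reads per library (vertical axis, linear, own scale in each panel) for Egfl6, Fras1, Frem1 and Frem2 in PBS, CTX100 and CTX140; points are libraries and the line is the mean ± SD, which reaches below 0 where most libraries have no read. Egfl6 has no read in PBS and 1 to 7 in each treated library, and the 7 reads of Fras1 at CTX100 are from 1 library.

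On the scale of levels per length, the members spanned several orders of magnitude. In PBS the order was Itgb1 at 150.4 ± 35.4 FPKM, Npnt at 19.9 FPKM, Itga8 at 0.360 ± 0.109 FPKM, Frem1 at 0.0972 ± 0.0527 FPKM, Frem2 at 0.00329 and Fras1 at 0.000848 FPKM, with Egfl6 listed at 0. Itgb1, Npnt, Itga8 and Frem1 were each apart by more than their SD, and Frem2 and Fras1 were not. In CTX100, Itga8 (0.0938 ± 0.0265 FPKM), Egfl6 (0.0872 ± 0.0509 FPKM) and Frem1 (0.0684 ± 0.0308 FPKM) no longer differed beyond their spread. In CTX140, Itga8 (0.252 ± 0.079 FPKM) was again above Frem1 (0.0855 ± 0.0341 FPKM) and Egfl6 (0.0748 ± 0.0547 FPKM), of which the last 2 did not differ beyond their spread.

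Among the 18 integrin α subunits Itga8 ranked from 14 to 16 in PBS libraries, 16 to 17 in CTX100 and 15 to 17 in CTX140. It made up 0.215 ± 0.045% of the summed α subunit FPKM in PBS, 0.0635 ± 0.0185% in CTX100 and 0.185 ± 0.057% in CTX140. Among 7 known ligands of α8β1, Npnt in PBS (19.9 FPKM) stood beside Tgfb1 (19.7 ± 4.09 FPKM), whose latency peptide carries the RGD motif, and under osteopontin (Spp1, 3913 ± 1912 FPKM) and fibronectin (Fn1, 313 ± 147 FPKM). In PBS it stood above tenascin-C (Tnc, 10.4 ± 3.27 FPKM), and in both treated groups below it, with Tnc at 19.5 ± 2.85 FPKM in CTX100 and 20.9 ± 5.29 FPKM in CTX140.

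**Figure D4:**
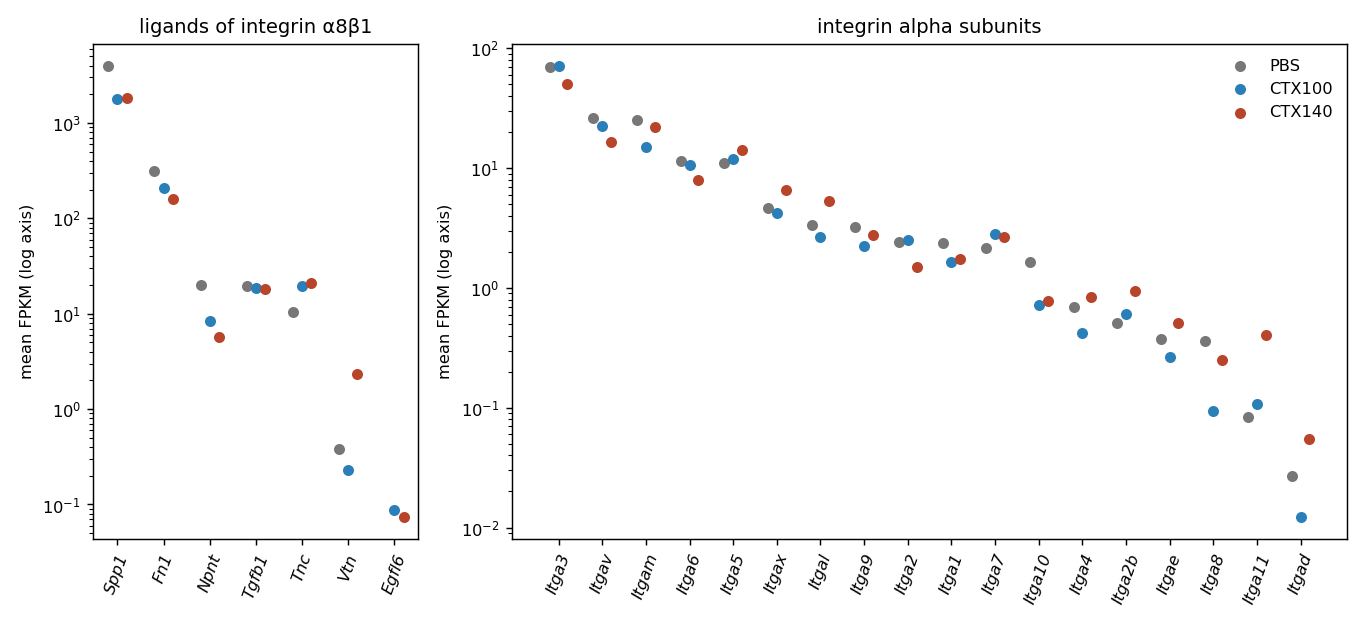
Mean FPKM (vertical log axis) of 7 ligands of integrin α8β1 (left) and of 18 integrin α subunits (right) in PBS, CTX100 and CTX140, ordered by the PBS mean. The Npnt means are 19.9, 8.32 and 5.74 FPKM, with overlapping ranges of libraries in CTX100 and CTX140. Itga8 lies near the low end of the α subunits. Egfl6 in PBS is listed at 0 and has no point on the log axis.

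Genes most like Npnt and Itga8 over the 14 libraries were ranked by Pearson r of log2 CPM after subtracting each group's mean, so that the difference between groups does not enter. The closest to Npnt were Gdpd5 (0.93), Man1a2 (0.93), Mtmr11 (0.92), Chst2 (0.92) and Dnajc16 (0.90). With the group differences left in, r was 0.97 for Man1a2, a Golgi mannosidase, and 0.93 for Mtmr11, but 0.44 for Gdpd5. The closest to Itga8 were Zfp459 (0.88), Ak3 (0.88), Atp6v0d2 (0.86), Aldh1a7 (0.86) and Pnrc2 (0.85), with values of 0.18 to 0.55 when the group differences were left in. Npnt and Itga8 had r of 0.23 with each other within groups and 0.41 over all libraries, and Npnt and Itgb1 0.45 and 0.75. The libraries share depth and composition, and the best of 15360 genes over 14 points is high by selection, so these values are descriptions.

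Genes around the members were taken in 7 lists: Fraser complex partners, other α8β1 ligands, other α and β integrin subunits, basement membrane components, Gdnf and Ret signalling, and integrin adhesion adaptors. Of their 81 genes 75 were tested. At CTX100 against PBS 4 were called higher and 1 lower, where 1.2% of all tested genes were called higher and 0.397% lower. At CTX140 against PBS 15 were called higher and 22 lower (all tested genes: 11.1% and 10.1%). At CTX140 against CTX100 2 were called higher and 1 lower (all tested genes: 0.775% and 0.475%). In either direction these are 6.67%, 49.3% and 4.0% of the 75 genes. The lists were chosen with earlier results of these data known. Their shares therefore describe them and are not evidence of enrichment, and the same limit holds for the list genes named below. Without 1 library the CTX100 count of 5 was 0 (PBS 3, with 16 at an unadjusted p under 0.05), 1 (PBS 4), 8 (PBS 2) or 1 to 3 (any CTX100 library). The CTX140 against CTX100 count of 3 was 0 without any 1 of CTX100 1 to 4 or CTX140 1 to 3 (28 to 36 at an unadjusted p under 0.05), 7 without CTX140 4 and 15 without CTX140 5. The lists' median log2 fold change was -0.04 at CTX100 and -0.11 at CTX140 against PBS, with -0.01 and 0.02 over all tested genes. The adjusted p-values given below are those of edgeR's quasi-likelihood test, adjusted over all tested genes.

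Of the Fraser complex partners, the hemicentins Hmcn1 and Hmcn2, very large matrix proteins of which hemicentin 1 acts with Fras1 in zebrafish fins, rose at CTX140. Hmcn1 averaged 3.19 ± 1.33 CPM in CTX140 and 0.483 ± 0.151 CPM in PBS, a log2 fold change of 2.72 ± 0.45 (adjusted p = 0.000848). It was also higher in CTX140 than in CTX100, by 1.79 ± 0.38 (adjusted p = 0.0384), although the ranges overlapped and the call was lost without any 1 of CTX100 1 to 4 or CTX140 1 to 3 (adjusted p = 0.058 to 0.111). Hmcn2 averaged 3.32 ± 1.57 CPM in CTX140 and 0.781 ± 0.347 CPM in PBS, with a log2 fold change of 2.08 ± 0.45 (adjusted p = 0.00456). Grip1, the scaffold that carries Fras1 and Frem2 to the cell surface, and Vwa2, a matrix partner of the complex, were not called; Vwa2 had 2.13 ± 1.58 CPM in CTX100 and 0.729 ± 0.613 CPM in PBS. At CTX100 against PBS edgeR called 0 of the 4 tested, with 2 at an unadjusted p under 0.05 and 0 in DESeq2.

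Among the other ligands, osteopontin and tenascin-C moved in opposite directions at both doses. Spp1 averaged 2952 ± 278 CPM in CTX100, against 6465 ± 3131 CPM in PBS, and had a log2 fold change of -1.13 ± 0.23 (adjusted p = 0.0244). At CTX140 it averaged 3004 ± 427 CPM and fell by 1.11 ± 0.23 (adjusted p = 0.0033). Tnc averaged 153 ± 22.3 CPM in CTX100, against 81.2 ± 25.9 CPM in PBS, and rose by 0.91 ± 0.21 (adjusted p = 0.0431). At CTX140 it rose by 1.00 ± 0.21 (adjusted p = 0.0045). The CTX100 calls were lost without PBS 3 (Spp1: -0.74, adjusted p = 0.0685; Tnc: 0.76, adjusted p = 0.152). That of Spp1 was also lost without PBS 4 or any 1 of CTX100 2 to 5, and that of Tnc without PBS 1 or any 1 of the CTX100 libraries. Fibronectin fell at CTX140, with 1888 ± 385 CPM against 3661 ± 1707 CPM in PBS and a log2 fold change of -0.96 ± 0.26 (adjusted p = 0.0162), a call lost without PBS 3 (-0.62, adjusted p = 0.0823).

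Of the 16 other α subunits tested, 2 rose and 5 fell at CTX140 against PBS. Itga6, a laminin receptor subunit, averaged 71.8 ± 5.40 CPM in CTX140 and 103 ± 7.06 CPM in PBS and had a log2 fold change of -0.52 ± 0.09 (adjusted p = 0.0015). CTX140 lay below CTX100 as well, without overlap (log2 fold change -0.42 ± 0.09, adjusted p = 0.0384), but that call was lost without any 1 of CTX100 1 to 4 or CTX140 1 to 3 (adjusted p = 0.0688 to 0.118). Itgav, the αv subunit that also binds RGD ligands, fell by 0.67 ± 0.15 (adjusted p = 0.00637), and Itga3, another laminin receptor subunit, fell by 0.46 ± 0.13 (adjusted p = 0.0189). Itga2b, the platelet and megakaryocyte subunit, rose by 0.91 ± 0.24 (adjusted p = 0.014). The call of Itga3 was lost without PBS 3 (adjusted p = 0.0504) or PBS 4 (adjusted p = 0.0528). At CTX100 against PBS edgeR called 0 of the 16, with 3 at an unadjusted p under 0.05 and 2 in DESeq2.

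Of the 7 other β subunits, 2 rose and 2 fell at CTX140 against PBS. Itgb7, the leukocyte β7 chain, averaged 122 ± 38.1 CPM in CTX140 and 52.4 ± 11.0 CPM in PBS and rose by 1.22 ± 0.19 (adjusted p = 0.000702). Itgb6, an epithelial chain, rose by 2.17 ± 0.47 (adjusted p = 0.00492) from a low level, with 0.967 ± 0.295 CPM in CTX140 and 0.213 ± 0.116 CPM in PBS. Itgb4, the hemidesmosome chain that pairs with Itga6, fell by 0.89 ± 0.19 (adjusted p = 0.0046), and Itgb3 fell by 0.48 ± 0.16 (adjusted p = 0.0392). The Itgb3 call was the least stable: it was lost without PBS 1, 3 or 4 or without CTX140 1, 2 or 5 (-0.38 to -0.49). At CTX100 against PBS edgeR called 0 of the 7, with 3 at an unadjusted p under 0.05 and 1 in DESeq2.

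Basement membrane genes split at CTX140 against PBS, with 5 of 21 tested called higher and 6 lower. Lamb3, a laminin β chain of epithelial basement membranes, averaged 2.06 ± 0.62 CPM in PBS, 7.44 ± 2.69 CPM in CTX100 and 11.2 ± 2.78 CPM in CTX140. It rose by 1.85 ± 0.31 at CTX100 (adjusted p = 0.0158) and by 2.43 ± 0.31 at CTX140 (adjusted p = 0.000165). The CTX100 call was lost without PBS 3 (adjusted p = 0.0623) or PBS 4 (adjusted p = 0.0551). Lama4, an α chain of vascular and mesenchymal basement membranes, averaged 27.5 ± 8.90 CPM in CTX140 and 11.9 ± 3.44 CPM in PBS and rose by 1.21 ± 0.23 (adjusted p = 0.00245). Against CTX100 it was higher by 0.91 ± 0.22 (adjusted p = 0.04995), with overlap, and that call was lost without any 1 of the CTX100 libraries or of CTX140 1 to 3 (adjusted p = 0.0612 to 0.129). The proteoglycan agrin (Agrn) fell by 0.89 ± 0.19 (adjusted p = 0.00454) and Col18a1, which encodes the endostatin-bearing collagen, fell by 0.70 ± 0.16 (adjusted p = 0.00615).

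Gdnf, whose expression in the mouse kidney depends on nephronectin and α8β1, was higher in treated tumours. Npnt was lower in them, and a link between these genes was not tested. Gdnf averaged 0.831 ± 0.189 CPM in PBS, 3.11 ± 0.93 CPM in CTX100 and 3.71 ± 1.52 CPM in CTX140, with log2 fold changes of 1.90 ± 0.38 (adjusted p = 0.0244) and 2.15 ± 0.38 (adjusted p = 0.00136) at CTX100 and CTX140 against PBS. Gfra1, its co-receptor, averaged 0.221 ± 0.128 CPM in PBS, 1.05 ± 0.33 CPM in CTX100 and 2.12 ± 0.86 CPM in CTX140. It rose by 2.22 ± 0.50 at CTX100 (adjusted p = 0.038) and by 3.22 ± 0.50 at CTX140 (adjusted p = 0.000577). In both genes the treated libraries lay above all PBS libraries. The CTX100 calls of both were lost without PBS 3, PBS 4 or any 1 of CTX100 2, 3 and 5 (adjusted p = 0.0561 to 0.142), and that of Gfra1 also without CTX100 1 or 4. Spry1, an antagonist of receptor tyrosine kinase signalling, averaged 64.6 ± 19.6 CPM in CTX140 and 155 ± 69.5 CPM in PBS and fell by 1.26 ± 0.29 (adjusted p = 0.0074). Ret, the kinase receptor itself, was not called at either dose and had 0.490 ± 0.272 CPM in PBS, 0.766 ± 0.301 CPM in CTX100 and 1.32 ± 0.64 CPM in CTX140. Etv4, Etv5 and Wnt11, the rest of the list, were not called at either dose against PBS. Their log2 fold changes at CTX140 against PBS were -0.36 ± 0.14, -0.26 ± 0.17 and 1.01 ± 0.43.

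Of the 15 integrin adhesion adaptors tested, 1 rose and 6 fell at CTX140 against PBS. Parva (α-parvin) fell by 0.55 ± 0.10 (adjusted p = 0.00193) and Lims1 (PINCH1) by 0.46 ± 0.12 (adjusted p = 0.0122); both proteins bind integrin-linked kinase. Lims2 (PINCH2) rose by 1.64 ± 0.33 (adjusted p = 0.00304), with 3.97 ± 1.33 CPM in CTX140 and 1.27 ± 0.54 CPM in PBS. Bcar1 (p130Cas) fell by 0.55 ± 0.16 (adjusted p = 0.0229), a call lost without PBS 3, PBS 4 or CTX140 2 (-0.46 to -0.51). At CTX100 against PBS edgeR called 0 of the 15, with 2 at an unadjusted p under 0.05 and 0 in DESeq2.

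**Figure D5:**
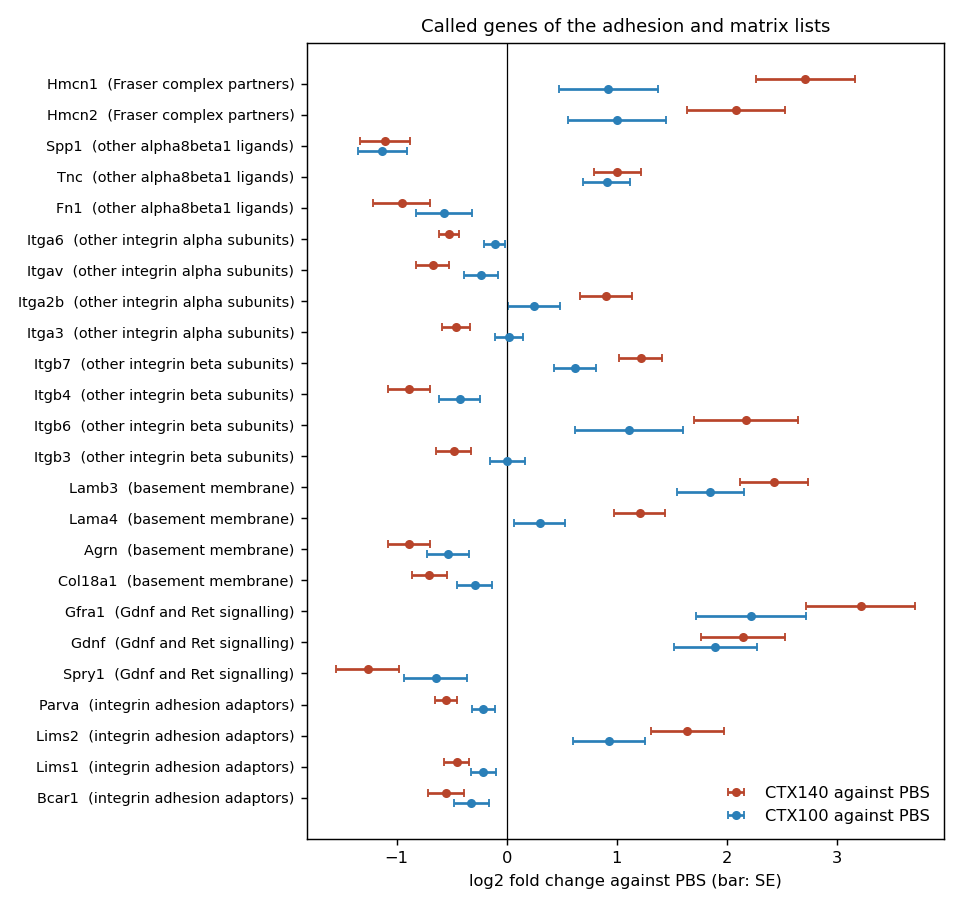
Log2 fold change against PBS (horizontal axis, bar: SE) of the named list genes called at CTX140 against PBS, for CTX140 and CTX100, grouped by list. Gfra1, Hmcn1 and Lamb3 lie farthest right at CTX140 (3.22, 2.72 and 2.43), and Spry1 and Spp1 farthest left (-1.26 and -1.11).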

How the data were processed

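The authors deposited whole-number counts per Ensembl gene, not normalized, and FPKM values that equal, per the values themselves, the count over the listed gene length and 1 constant per library (14.3 to 20.1, in multiples of 1000000). Per the submitters' processing notes the build was mm10 and DESeq2 was used in a role they do not state. The sources used here give no aligner, counter or strand setting, so Itga8 reads and those of the overlapping antisense gene E030013I19Rik (14 reads over all libraries) cannot be told apart. Groups follow the labels and no library was left out. Counts were fitted with edgeR 4.0.16 (R 4.3.3): TMM factors, filterByExpr by group, 15360 genes, 1 robust quasi-likelihood fit of 14 libraries with a mean per group, two-sided, Benjamini-Hochberg adjustment over all genes tested, called under 0.05. CPM is per 1000000 of the TMM-scaled size. For members with few reads, ratios have exact 95% intervals, and a group at 0 gets a floor of 3 counts over the group. Errors are SD for levels and SE for fold changes. Without molecular identifiers reads are not independent, so intervals and floors cover counting error only. The fit was also run on counts simulated with its own fitted dispersions, which cannot show whether it misfits these libraries.

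The members and all lists were chosen with earlier results of these data known. The genes named are the members; from each list and contrast, up to 4 called genes with the smallest p; and the 5 protein-coding genes most like Npnt and Itga8. Grip1, Vwa2, Ret, Etv4, Etv5 and Wnt11 were named after their values were seen, as were the cell type markers. Promoters are RefSeq's on GRCm38.p6. The alternatives were RLE factors, no filter, a stricter filter (1 CPM in at least 4 libraries), DESeq2 1.42.0, only the 2 groups compared, a replicate block, limma 3.58.1 on log2(FPKM + 1) and log2(FPKM + 0.1), and leaving out each library.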

Additional observations from a re-analysis of the deposited data

Results flagged for a closer look

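A library was singled out where its gap to the nearest other library of its group was large against the group's range (Dixon's 95% criterion). Of 125 sets of values, 11 met it, where chance gives about 1 in 20. Among the members, Itga8 was highest in PBS 3, at 3.84 CPM against 2.19 to 2.35 CPM in the other PBS libraries. Frem1 was highest in the same library, at 2.45 CPM against 0.904 to 1.16 CPM. Fras1 had 0.422 CPM in CTX100 1 and 0.0603 CPM in PBS 1, with 0 in the other libraries of each group, which in PBS is a single read.

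Among the list genes, Hmcn2 had 1.30 CPM in PBS 2 (others 0.559 to 0.663 CPM), Itgav 123 CPM in CTX140 1 (others 177 to 200 CPM), Spp1 2462 CPM in CTX100 3 (others 3026 to 3138 CPM) and Tnc 192 CPM in CTX100 2 (others 138 to 149 CPM). Among the summed cell type markers, skeletal muscle stood at 191 CPM in CTX100 3 (others 4.46 to 16.2 CPM). Schwann cell markers stood at 73.8 CPM in CTX140 1 (others 30.6 to 40.5 CPM) and skin keratinocyte markers at 6.01 CPM in PBS 2 (others 3.62 to 3.91 CPM). In CTX100 3, the library with the muscle transcripts, Npnt lay within the range of the other CTX100 libraries, and Itga8 was the highest of them at 0.952 CPM.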

How the results depend on the processing

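Of 208 alternative fold changes of the 4 tested members, 202 lay within 1 SE of the value given; the other 6 were Itga8 on the FPKM scales (-1.23 at CTX100 against PBS and 0.84 at CTX140 against CTX100 with a pseudocount of 0.1, and the 3 values with 1 given above) and Itgb1 without PBS 3. Of the 208, 1 changed sign (Frem1 at CTX140 against PBS without PBS 3, 0.26). For the members with few reads, leaving out 1 library was added after seeing the data. Of 546 alternatives of the 32 list gene results, 464 kept the call, 82 lost it and 0 changed sign. Genes called at CTX100 against PBS were 857 in DESeq2, 529 from the 2 groups alone, 148 in limma on log2(FPKM + 1) and 17 to 686 without 1 library; list genes called were 8, 7, 1 and 0 to 8. At CTX140 against PBS, genes called were 1878 from the 2 groups alone and 1975 to 3894 without 1 library, and list genes called stayed within 1.5 times. At CTX140 against CTX100, DESeq2 called 1285 genes, and 0 to 1007 were called without 1 library; list genes called were 16 in DESeq2, 1 in limma with either pseudocount and 0 to 15 without 1 library. Where edgeR called 0 genes there (without CTX100 2, 3 or 4 or CTX140 3), 2659 to 3089 had an unadjusted p under 0.05. The causes of these shifts were not tested.

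Same-numbered libraries did not deviate together throughout, with correlations of -0.19 to 0.43. Among PBS libraries, PBS 1 was closest to CTX100 1 (0.20) and to CTX140 1 (0.43). Between the doses, CTX140 4 and 5 were closest to CTX100 4 and 5 (0.22 and 0.24). The remaining libraries were closest to another number, so the numbers were not taken to pair the samples. With the number as a replicate block, 181 genes were called at CTX100 against PBS, 2827 at CTX140 against PBS and 293 at CTX140 against CTX100. The block left 3 of the 5 list genes called at CTX100 against PBS, without Gdnf (adjusted p = 0.0518) and Gfra1 (0.0653), and it also ended the calls of Itgb3 at CTX140 against PBS and of Hmcn1 and Itga6 at CTX140 against CTX100. Depth limits Egfl6, Fras1 and Frem2, which no library measured with more than 7 reads, and leaves Itga8 with counting error of the order of its library spread in CTX100.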
